A study of Homo sapiens with 4 samples.

Results

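The BCL2 family decides whether the outer mitochondrial membrane stays intact. Pro-survival members such as Bcl2, Bcl-xL and Mcl-1 hold the effectors Bax and Bak in check, and BH3-only members such as Bim, Bid, Puma and Bad relieve that restraint or activate the effectors directly. Once Bax or Bak opens the membrane, cytochrome c and Smac leave the mitochondria and caspases are activated. Glioblastoma cells are known to depend on Bcl-xL and Mcl-1.

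Levels of these proteins were taken from an RPPA experiment on LN229, an established human glioblastoma cell line. RPPA (reverse phase protein array) spots diluted cell lysate onto nitrocellulose, and a separate slide is stained for every protein or phosphorylated site. Of 440 antibodies, 10 recognised a BCL2 family member. They were matched by name: every total-protein or phosphosite antibody to Bad, Bak, Bax, Bcl2, Bcl-xL, BCL2A1, Bid, Bim, Mcl-1 or Puma. Of these, 5 recognise total pro-death proteins (the effectors Bax and Bak and the BH3-only proteins Bid, Bim and Puma), 4 recognise pro-survival proteins (Bcl2, Bcl-xL, BCL2A1 and Mcl-1), and 1 recognises Bad phosphorylated at S112. Every antibody name matched 1 human gene, so 10 of 10 genes were found, and total Bad was not measured here. No level was missing and no antibody was left out.

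The 4 samples were 2 of untreated LN229 cells, labelled as time 0 min, and 2 of LN229 cells given 300 nM salmon calcitonin (sCT), a peptide ligand of the calcitonin receptor, for 60 min. No genotype or other agent separates the groups, and no control kept for 60 min without sCT was analysed here, so treatment and elapsed time cannot be told apart. The series describes its treatments as biological duplicates, of 1 cell line. The deposited values are linear relative levels, with a median close to 1 in each sample over all antibodies. Such a level compares samples for one antibody and cannot show that a protein is abundant or absent, so neither the glial identity of the line nor the order of the family members by abundance could be read from it. Over the 440 antibodies, which are not independent replicates, r between the replicates' log2 levels was 0.790 for untreated cells and 0.975 for sCT. Levels spanned a wider range after sCT (0.045 to 6.88) than in untreated cells (0.426 to 3.85). As r depends on that range, the 2 values do not by themselves rank the agreement of the replicates.

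After sCT, 6 of the 10 family antibodies were called at an adjusted p of 0.05, against 55% of the whole panel. Bax, Bid, Puma and Bcl-xL were higher (4 of 10, against 21.4% of the panel), and phosphorylated Bad and Mcl-1 were lower (2 of 10, against 33.6% of the panel). Changes were tested on the log2 scale with limma (n = 2 per group throughout), in which all antibodies inform the spread of each, and adjusted p-values are Benjamini-Hochberg values over the 440 antibodies. The falls of phosphorylated Bad and Mcl-1 kept their call with any one sample left out and under each scaling of the samples that was tried. The 4 rises were smaller, and each lost its call without some sample and under both centrings on control antibodies. For 8 of the 10 antibodies the groups did not overlap, but this was so for 85.9% of the panel. The study's figure legend on the Hippo pathway instead asks for a p under 0.05 and a log2 change of at least 0.58 in size. It names no test or adjustment, and limma's unadjusted p was used for these thresholds here. Phosphorylated Bad, which was lower, was the 1 family antibody of 10 to meet them, against 21.6% of the panel in either direction and 19.1% lower.

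**Figure D1:**
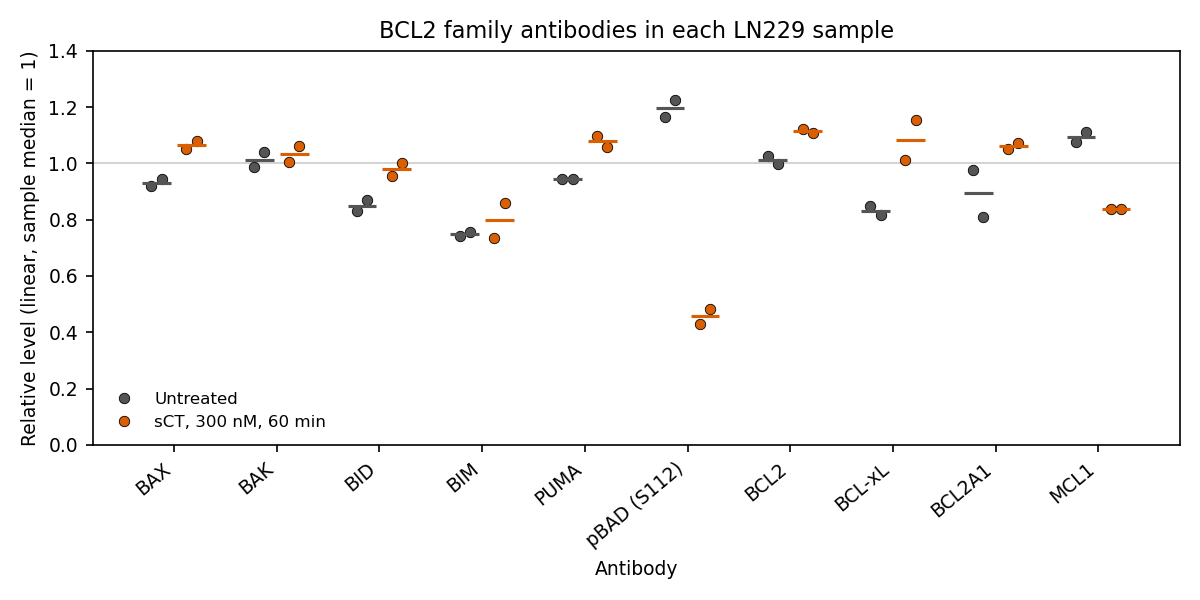
Linear relative level (y axis, sample median of 1) of the 10 BCL2 family antibodies (x axis) in the 2 untreated and the 2 sCT samples of LN229; points are samples and bars are group means. Phosphorylated Bad lay between 1.16 and 1.23 in untreated cells and between 0.431 and 0.481 after sCT, and every other antibody stayed between 0.736 and 1.15.

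Bad phosphorylated at S112 showed the furthest change of the family. Bad is a BH3-only protein that binds Bcl-xL and Bcl2. When survival kinases phosphorylate it, 14-3-3 proteins hold it in the cytosol, away from them. The site is numbered after the mouse protein. The levels were 1.16 and 1.23 in the untreated samples and 0.431 and 0.481 in the sCT samples. Both sCT samples lay far below both untreated samples, and the distance between the groups was many times the distance between replicates. Its group means were 1.20 ± 0.0434 and 0.456 ± 0.0355 (SD, n = 2 each), for a log2 fold change of -1.39 (SE 0.071, 95% confidence interval -1.58 to -1.20, limma adjusted p = 0.000218), a level 2.62-fold lower. Of the 88 phosphosite antibodies, 47.7% were lower at the same threshold, and phosphorylated Bad had the 9th lowest change among them and the 33rd lowest of the panel. Leaving out any 1 sample gave values between -1.47 and -1.31. Since total Bad was not measured here, a smaller phosphorylated share and less Bad protein cannot be told apart.

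Mcl-1 was the only total protein of the family that fell on the deposited levels, joined by Bak when samples were centred on 6 loading control antibodies. It is a pro-survival member that sequesters Bim and Bak, and it is known for its rapid turnover by the proteasome. Its level was 1.07 and 1.11 in the untreated samples and 0.836 in each of the sCT samples. The replicates of each group lay close together and the groups were well apart. Group means were 1.09 ± 0.0256 and 0.836 ± 4.26e-05 (SD, n = 2 each). On the log2 scale Mcl-1 thus fell by 0.38 (SE 0.045, 95% confidence interval -0.50 to -0.27, limma adjusted p = 0.00231), and the linear level fell by 23.4%. Without any 1 sample the value stayed between -0.41 and -0.36, with limma's adjusted p at most 0.0283. Among the antibodies of the panel not named for a phosphosite, 106 of 352 were lower, so a call in this direction was common.

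None of the other pro-survival members was called lower on the deposited levels or under any alternative run. Bcl-xL, which restrains Bax and Bak and binds Bad, had levels of 0.847 and 0.816 in untreated cells and of 1.01 and 1.15 after sCT. Both sCT samples were higher, although they lay further apart than those of most antibodies, with a wider distance between sCT replicates for only 43 of the 440. Bcl-xL rose by 0.38 on the log2 scale (SE 0.078, 95% confidence interval 0.17 to 0.58, limma adjusted p = 0.0138), a level 1.30-fold higher and the largest rise of the family. Limma's adjusted p was 0.0540 without untreated replicate 1, 0.0782 without untreated replicate 2 and 0.0503 without sCT replicate 2, so the call held only without sCT replicate 1 (0.0196).

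Bcl2, the founding member of the family, had levels of 1.03 and 0.999 in untreated cells and of 1.12 and 1.11 after sCT. The groups did not overlap, but the log2 fold change of 0.14 (95% confidence interval 0.020 to 0.25) did not pass the threshold (adjusted p = 0.0553 from limma). With the variance modelled by trend and robust estimation it did (adjusted p = 0.0328), and likewise on linear levels (adjusted p = 0.0416). BCL2A1, an NF-kB target that binds Bim and Bid, was at 0.977 and 0.809 in untreated cells and at 1.05 and 1.07 after sCT. Here the untreated samples disagreed more than the sCT samples did, and only 36 antibodies of the panel had a wider distance between the untreated replicates. BCL2A1 had a log2 fold change of 0.26 (95% confidence interval -0.0074 to 0.52, adjusted p = 0.0859 from limma), and without untreated replicate 1 it was 0.39 (adjusted p = 0.0135).

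Of the effectors, which form the pores, Bax was called and Bak was not. Bax was at 0.919 and 0.943 in untreated cells and at 1.05 and 1.08 after sCT. The replicates agreed closely and the groups were apart. Bax rose by 0.19 on the log2 scale (SE 0.045, limma adjusted p = 0.0213), or 14.3% above untreated. Bak was at 0.988 and 1.04 in untreated cells and at 1.004 and 1.06 after sCT, so that each group held 1 of the 2 lower and 1 of the 2 higher values. Its log2 fold change was 0.028 (adjusted p = 0.685 from limma), and its 95% confidence interval of -0.12 to 0.17 leaves room for a change as large as that estimated for Bcl2. The difference between Bax and Bak was not tested.

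Among the BH3-only proteins, Bid and Puma were higher. Bid, which caspase-8 cleaves to link death receptors with the mitochondria, was at 0.829 and 0.871 in untreated cells and at 0.957 and 1.001 after sCT. Bid rose by 0.20 on the log2 scale (SE 0.053, limma adjusted p = 0.0283). Puma, a p53 target that binds all pro-survival members, was at 0.944 in both untreated samples and at 1.10 and 1.06 after sCT, so it rose by 0.19 on the log2 scale (SE 0.046, limma adjusted p = 0.0223). For both proteins the sCT samples lay above the untreated samples, by about the same margin as for Bax. The calls of Bax, Bid and Puma were each lost with any 1 of the 4 samples left out, with adjusted p between 0.0547 and 0.146.

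Bim, which binds every pro-survival member and is turned over after phosphorylation by ERK, was at 0.740 and 0.755 in untreated cells and at 0.736 and 0.861 after sCT. Of the sCT samples, replicate 1 lay just below both untreated samples and replicate 2 above them, and only 27 antibodies of the panel had a wider distance between the sCT replicates. Bim had a log2 fold change of 0.090 (95% confidence interval -0.14 to 0.32, adjusted p = 0.398 from limma). It was -0.023 without sCT replicate 2 and 0.20 without sCT replicate 1, so that 1 sample decided its direction.

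**Figure D2:**
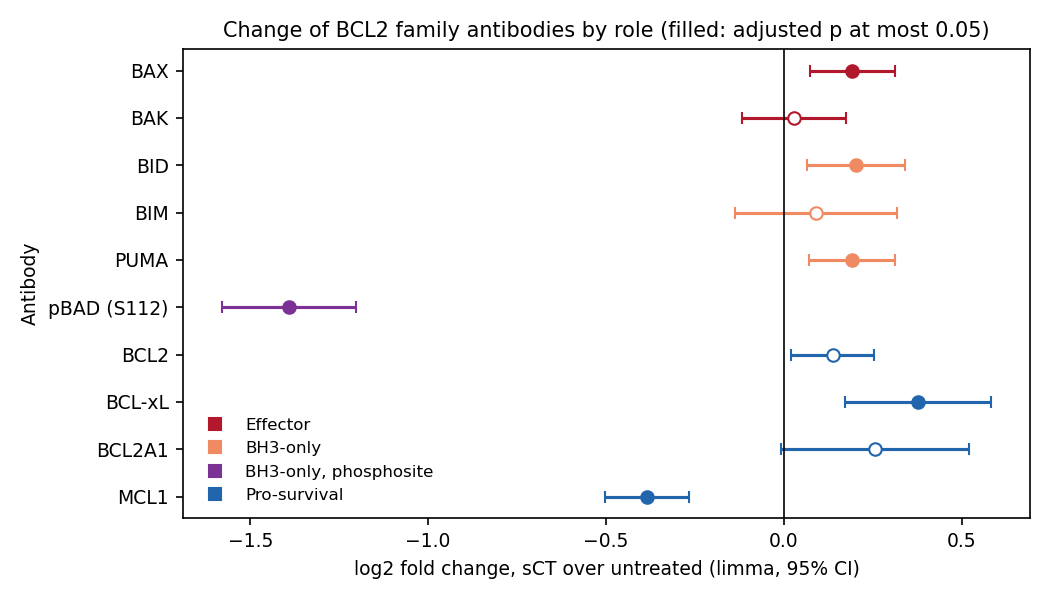
Log2 fold change (x axis, sCT over untreated, n = 2 per group) with limma's 95% confidence interval for each family antibody (y axis), coloured by role; filled points passed an adjusted p of 0.05. Phosphorylated Bad at -1.39 and Mcl-1 at -0.38 lie to the left, and the 8 other antibodies lie between 0.028 and 0.38.

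Pro-death and pro-survival members were then set side by side. Of the 5 total pro-death antibodies, 3 were higher and 0 lower, with a median log2 fold change of 0.19, and with any 1 sample left out 0 were called. Of the 4 pro-survival antibodies, 1 was higher and 1 lower, with a median of 0.20. Among all antibodies not named for a phosphosite, which take in cleaved forms, 24.1% were higher and 30.1% lower. Pro-death minus pro-survival was thus -0.0060, and the spread within the pro-survival group, from -0.38 for Mcl-1 to 0.38 for Bcl-xL, was wider than the distance between the groups. Over all antibodies the median was 0.016, and over the 352 not named for a phosphosite it was 0.054. With untreated replicate 1 left out the medians differed by -0.11, and with untreated replicate 2 left out by 0.072.

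Opposing partners were also compared within each sample, as the log2 level of one antibody minus that of the other. Only the shift of such a difference between samples carries meaning. Bax minus Bcl2, a common gauge of readiness for apoptosis, was -0.16 and -0.083 in the untreated samples and -0.095 and -0.037 after sCT, and the groups overlapped (difference 0.056, exact permutation test, two-sided, p = 0.667). Bax minus Bcl-xL was 0.12 and 0.21 in untreated cells and 0.055 and -0.098 after sCT, lower in 2 of 2 sCT samples (difference -0.18, exact permutation test, two-sided, p = 0.333). Bim minus Mcl-1 was -0.54 and -0.56 in untreated cells and -0.19 and 0.042 after sCT, higher in 2 of 2 sCT samples (difference 0.48, exact permutation test, two-sided, p = 0.333). After Benjamini-Hochberg adjustment over the 3 pairs these were 0.667, 0.5 and 0.5. With 2 samples against 2 the test cannot give a p under 0.333. With a sample left out, Bax minus Bcl2 differed by 0.017 to 0.095, Bax minus Bcl-xL by -0.26 to -0.11 and Bim minus Mcl-1 by 0.36 to 0.59. Quantile normalization gave 0.13, -0.41 and 1.10.

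**Figure D3:**
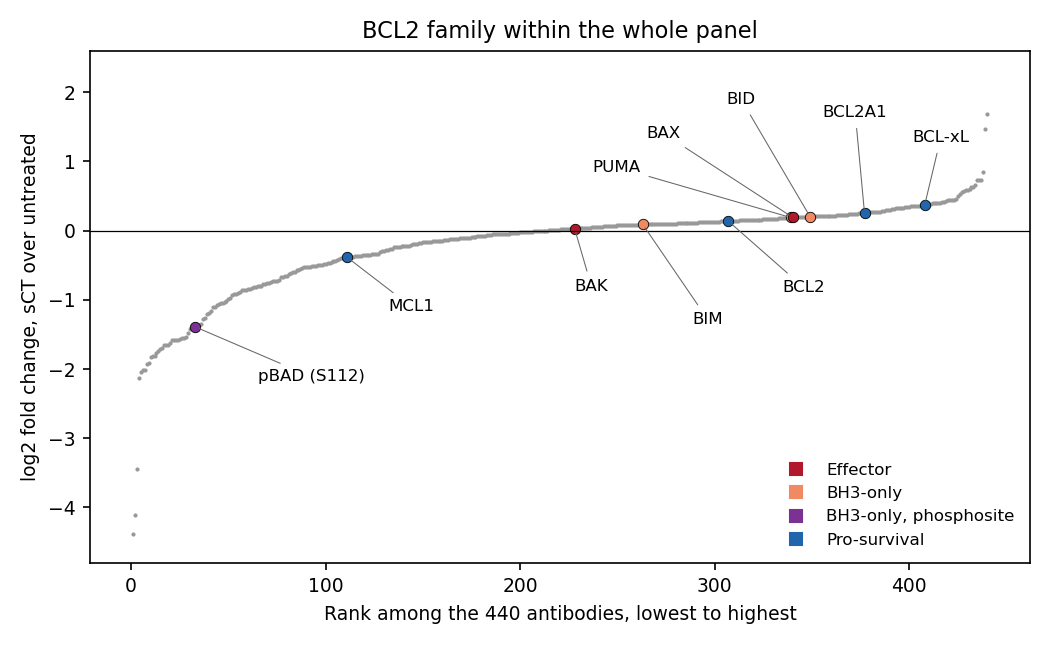
Log2 fold change (y axis, sCT over untreated) of all 440 antibodies against their rank (x axis, lowest to highest), with the BCL2 family marked by role. Phosphorylated Bad stands at rank 33 and Mcl-1 at rank 111, and the other members run from rank 228 (Bak) to rank 408 (Bcl-xL).

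The size of the rises turned on how the samples were scaled. The 6 antibodies listed as loading controls were picked by name, which took in HSP70 (HSPA1A) and cyclophilin F (PPIF), and their suitability as controls was not tested. They were not level after sCT: 4 of 6 were higher, against 21.4% of the panel, and 0 lower. The 4 were GAPDH at 0.57, HSP70 at 0.41, cyclophilin F at 0.33 and beta-actin at 0.17. The median log2 fold change of the 6 was 0.25, above the 0.19 of the family's total proteins. When each sample was centred on these 6 antibodies, each taken relative to its own mean, the panel median moved to -0.24, no family antibody was higher and 3 were lower, namely phosphorylated Bad at -1.65, Mcl-1 at -0.64 and Bak at -0.23. Under this centring 259 of the 440 antibodies were lower and 21 higher. Bax, Bid, Puma, Bim, Bcl2 and BCL2A1 then had log2 fold changes between -0.17 and -4.03e-05, and Bcl-xL had 0.12 (adjusted p = 0.258 from limma). Centring on beta-actin, D-a-tubulin and vinculin alone, a choice made after the levels of the others were seen, moved the panel median to -0.11. The centre was the median of these 3, and D-a-tubulin was itself at 0.00067 afterwards, so the scaling closely followed that 1 antibody. This centring left phosphorylated Bad at -1.52 and Mcl-1 at -0.51 as the only family calls, where 193 of the 440 antibodies were lower and 39 higher. Bcl-xL was at 0.25 (adjusted p = 0.0704 from limma) and Bax, Bid and Puma lay between 0.062 and 0.074. Quantile normalization, with 103 of the 440 antibodies higher and 115 lower, went the other way. Bim at 0.79 (adjusted p = 0.0127), Bcl-xL at 0.68 (adjusted p = 0.00748) and Puma at 0.23 (adjusted p = 0.0341) were called higher, and Bax and Bid were not called. A difference in the scaling of the lysates and a rise of these proteins cannot be told apart.

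**Figure D4:**
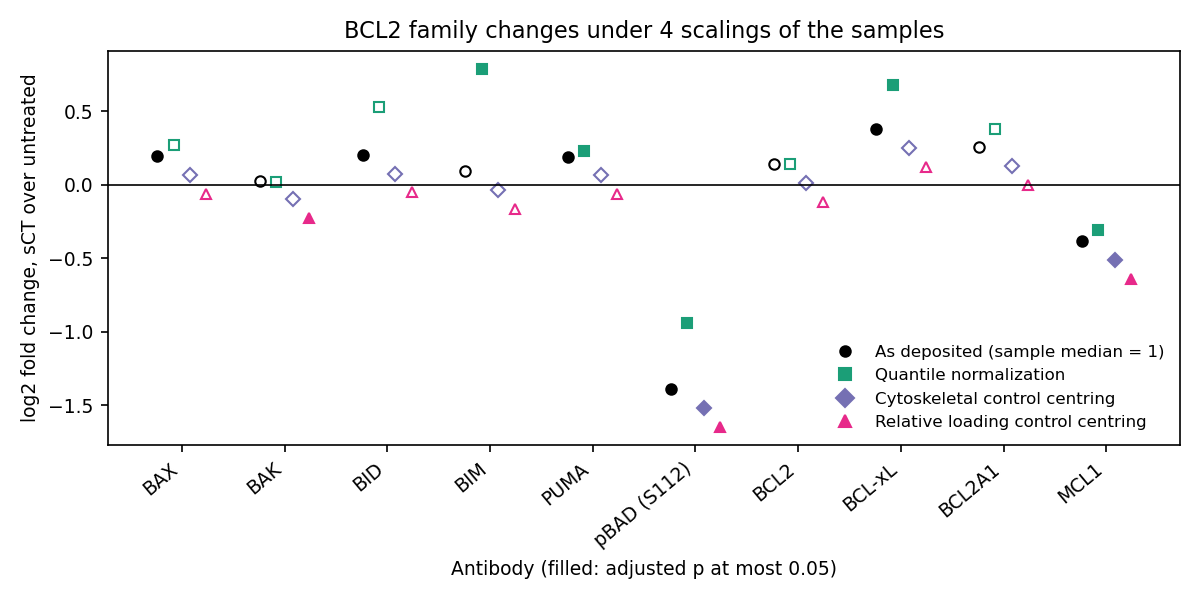
Log2 fold change (y axis, sCT over untreated) of each family antibody (x axis) for the levels as deposited and under 3 other scalings of the samples; filled symbols passed an adjusted p of 0.05. Phosphorylated Bad (-1.65 to -0.94) and Mcl-1 (-0.64 to -0.31) are filled and below 0 under all 4, and Bax, Bak, Bid, Puma, Bim and Bcl2 lie on both sides of 0. BCL2A1 reaches -4.03e-05 under relative loading control centring.

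Other proteins of the mitochondria were compared next. Of 16 antibodies to mitochondrial proteins, 6 were higher (against 21.4% of the panel) and 0 lower (against 33.6%), with a median log2 fold change of 0.13. This split turned with the scaling. With centring on the 6 loading control antibodies 2 were higher and 5 lower, where 21 of the panel were higher and 259 lower. Cyclophilin F (PPIF), higher at 0.33 on the deposited levels, was counted among those 6 controls and not among the 16. With centring on beta-actin, D-a-tubulin and vinculin 2 were higher and 2 lower, where 39 of the panel were higher and 193 lower. Porin, an abundant outer membrane channel, was at 0.082 (adjusted p = 0.256 from limma). Mitofusin-1, which fuses outer membranes, was higher at 0.51 (adjusted p = 0.00103), and hexokinase II, which docks on porin, at 0.60 (adjusted p = 0.0104), and both kept their calls under all 4 scalings, although hexokinase II lost its call without sCT replicate 1 (adjusted p = 0.0689). The other 4 were HSP60 at 0.18 (adjusted p = 0.0408 from limma), TUFM at 0.24 (adjusted p = 0.0112), NDUFB4 at 0.21 (adjusted p = 0.0146) and UQCRC2 at 0.21 (adjusted p = 0.0468). All 4 were below 0 when samples were centred on the 6 loading control antibodies. With centring on beta-actin, D-a-tubulin and vinculin they lay between 0.050 and 0.11, and none was called. Each of the 4 also lost its call without some sample. The part of a general shift of mitochondrial proteins in the rises of Bax, Bid and Puma was not tested.

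Kinases that can phosphorylate Bad were listed for the protein as a whole, not for S112. Of 6 antibodies to phosphorylated sites of these kinases, 4 were lower and 0 higher, where 47.7% of all 88 phosphosite antibodies were lower. Their median log2 fold change was -0.72, against -0.16 over all 88. AKT phosphorylated at S473 was at 1.37 and 1.67 in untreated cells and at 0.531 and 0.559 after sCT, a log2 fold change of -1.47 (adjusted p = 0.000523 from limma). AKT phosphorylated at T308 was at -1.04 (adjusted p = 0.000702), while the antibody to total AKT was at 0.029 (adjusted p = 0.590). RSK is known to phosphorylate Bad in growth factor signalling. For p90RSK phosphorylated at T573 the levels were 1.41 and 1.86 in untreated cells and 0.924 and 0.984 after sCT, a log2 fold change of -0.76 (adjusted p = 0.0104). Its call was lost when either sCT sample was dropped, and total RSK was at 0.091 (adjusted p = 0.161). AKT1 phosphorylated at S473, measured by its own antibody, was at -0.67 (adjusted p = 0.0359) but was not called under quantile normalization or when either sCT sample was dropped. Phosphorylated AKT2 at -0.15 (adjusted p = 0.0693) and phosphorylated p70 S6 kinase at 0.053 (adjusted p = 0.330) were not called.

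The Bad kinases themselves did not move as one. PAK1, which phosphorylates Bad downstream of RAC and CDC42, fell from 0.871 and 0.876 to 0.249 and 0.289, a log2 fold change of -1.70 (adjusted p = 0.000184 from limma), while PAK4 was at 0.065 (adjusted p = 0.724). Quantile normalization gave -0.83 for PAK1, and a filter on the lowest 10% of mean levels left PAK1 out. AKT2 was lower at -0.81 (adjusted p = 0.000486) and PKA-a at -0.33 (adjusted p = 0.00603), and both kept their calls with any sample left out. AKT1 was at 0.19 (adjusted p = 0.0223), a rise that was not called under either control centring. The relation of these kinases to the level of phosphorylated Bad was not tested. The 14-3-3 proteins that hold phosphorylated Bad were slightly higher, with log2 fold changes of 0.22 for beta, 0.20 for epsilon and 0.29 for zeta, but under the 2 control centrings they lay between -0.053 and 0.16 and none was called. Of the 4 fits with a sample left out, the call held in 1 for beta, 1 for epsilon and 2 for zeta.

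For Mcl-1 and Bim the list held 7 antibodies to ERK, JNK and GSK3. GSK3 marks Mcl-1 for degradation and is itself inhibited by phosphorylation at S21/S9, and this phosphorylated form was lower at -1.65 (adjusted p = 0.000141 from limma), together with total GSK3-beta at -0.59 (adjusted p = 0.00210). The antibody to both total GSK3 forms was at 0.22 (adjusted p = 0.0585), with both sCT samples above both untreated samples. ERK phosphorylated at T202/Y204, which acts on both Bim and Mcl-1, was at 2.96 and 3.85 in untreated cells and at 6.88 and 5.42 after sCT. Its log2 fold change of 0.86 (adjusted p = 0.0132) was 0.18 under quantile normalization (adjusted p = 0.322), and its call was lost without untreated replicate 1 or sCT replicate 1. Total ERK was also higher, at 0.38 (adjusted p = 0.00378), though not called with centring on the 6 loading control antibodies (adjusted p = 0.0789). Phosphorylated JNK was at 0.22 (adjusted p = 0.0117), and at -0.035 with centring on the 6 loading control antibodies. Of the regulators of Puma and Bim transcription, p53 was at -0.050 (adjusted p = 0.396), whereas FOXO3 was lower at -1.74 (adjusted p = 0.000141) and MDM2 phosphorylated at S166 at -1.40 (adjusted p = 0.000131). Quantile normalization gave -0.68 for FOXO3 and -0.87 for phosphorylated MDM2. A filter on the lowest 10% of mean levels left out both. FOXO3 phosphorylated at S318/S321 was at -0.22 (adjusted p = 0.0295), a call lost with any 1 sample left out. The relation of these kinases and regulators to the levels of Mcl-1, Bim and Puma was not tested. In all, 12 of the 29 antibodies to kinases, partners and regulators were lower (against 33.6% of the panel) and 7 higher (against 21.4%). The median log2 fold change of the 29 was -0.094. With centring on the 6 loading control antibodies 19 were lower and 1 higher, where 259 of the 440 antibodies were lower and 21 higher.

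**Figure D5:**
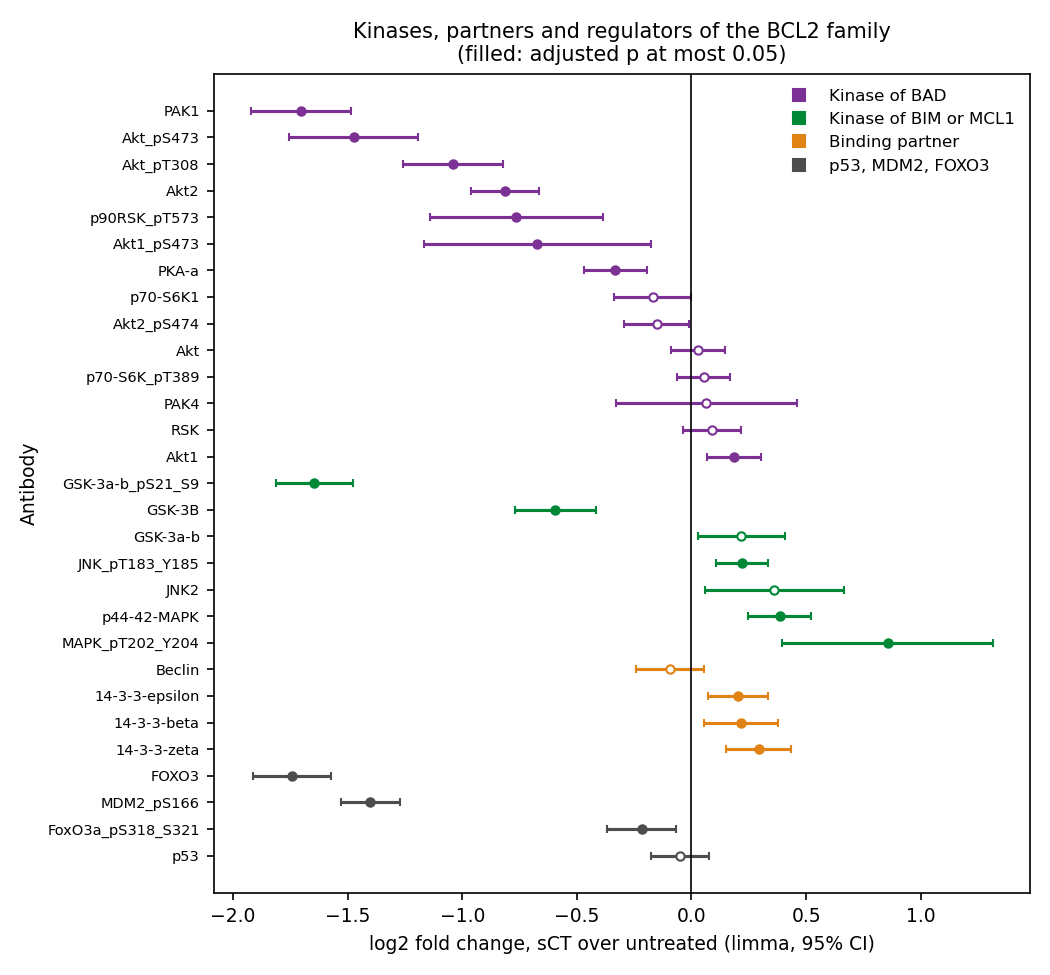
Log2 fold change (x axis, sCT over untreated, n = 2 per group) with limma's 95% confidence interval for the 29 antibodies to kinases, partners and regulators of the BCL2 family (y axis, coloured by kind); filled points passed an adjusted p of 0.05. PAK1 at -1.70, phosphorylated GSK3 at -1.65 and FOXO3 at -1.74 lie furthest to the left, and phosphorylated ERK at 0.86 furthest to the right.

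Downstream of the mitochondria, 4 of 8 antibodies to caspases, IAPs and their partners passed the threshold, against 55% of the panel, with 2 higher and 2 lower. XIAP, the caspase inhibitor that Smac displaces, was at 1.05 and 1.15 in untreated cells and at 0.669 and 0.729 after sCT. XIAP thus fell by 0.65 on the log2 scale (limma adjusted p = 0.00197), and its call held with any sample left out and under all 4 scalings. Cleaved caspase-7 at 0.37 (adjusted p = 0.0112) and PARP, by an antibody not labelled as cleaved, at 0.34 (adjusted p = 0.0168) were higher. Under the 2 control centrings they lay between 0.082 and 0.24 and were not called. Both also lost their calls when either sCT sample was dropped. c-IAP2 was at -0.20 (adjusted p = 0.0397), with its call lost when any one sample was left out and under quantile normalization. Cleaved caspase-3, the main executioner form, was at 0.16 (adjusted p = 0.0580), cleaved caspase-8, which cuts Bid, at 0.10 (adjusted p = 0.119), total caspase-8 at 0.054 (adjusted p = 0.423) and Smac at 0.16 (adjusted p = 0.0724).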

How the data were processed

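Lysates were printed as dilution series on nitrocellulose slides, probed with 1 antibody each and quantified as spot intensities, according to the study's methods. The authors deposited 1 relative level per antibody and sample, a linear ratio with a sample median close to 1. The steps from spot intensity to level are not given in the sources used here, signal over background is unknown, and the number of samples (2 per group) limits the precision. Levels were taken to log2 without a pseudocount and without a filter. The two-sided test of sCT against untreated was limma's moderated one (version 3.58.1, R 4.3.3), without covariates and with 2 residual and 2.59 prior degrees of freedom, with Benjamini-Hochberg adjustment over 440 antibodies. For pairs of antibodies an exact permutation test was used. Simulated data, with independent noise and shifts larger than the family's rises and the fall of Mcl-1, served to check the code. Calls of the size of those rises or of that fall were thus not checked.

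Every antibody matched by the family rule was named, and antibodies of the other lists were named where called. Those named without a call were chosen after their values were seen. The members and lists were chosen with earlier results of these data known, and the lists were written from general knowledge. The planned comparison of phosphorylated with total Bad could not be made without a total Bad level. Gene symbols came from RefSeq (GRCh38.p14). Alternatives were linear levels, median centring, quantile normalization, centring on control antibodies, other variance models, a filter on low levels, each sample left out, the replicate number as a block and the study's thresholds.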

Additional observations from a re-analysis of the deposited data

How the results depend on the processing

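The calls of phosphorylated Bad and Mcl-1 held under each alternative run except the unequal-variance test on linear levels (adjusted p = 0.0723 and 0.136), and Mcl-1 did not reach the log2 fold change of 0.58. The calls of Bax, Bid, Puma and Bcl-xL did not hold under either control centring. With 2 samples per group, single antibodies rest on the spread shared across the panel, and a group reduced to 1 sample is assumed to vary like the other.

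The number of family antibodies called, 6, was 3 with relative loading control centring, 2 with cytoskeletal control centring (chosen after seeing the data), 0 with the unequal-variance test, 1 at the figure legend's thresholds and between 2 and 3 with a sample left out. The pro-death count, 3, was 1, 0, 0 and 0 under these 4 in the same order and 0 with any sample left out. The 1 under relative loading control centring was Bak, lower. The pro-survival count, 2, was 1, 1, 0 and 0, and between 1 and 2 with a sample left out. The unequal-variance test called 1 antibody of the panel, and 0 of the caspase and IAP, kinase and partner and mitochondrial lists. The panel's 242 calls became 280 with relative loading control centring and 232 with cytoskeletal control centring. At the figure legend's thresholds they became 95, with 1 of the caspase and IAP list, 11 of the kinases and partners and 1 of the mitochondrial list. Cytoskeletal control centring left 2 calls on the caspase and IAP list. With a sample left out, the panel had between 148 (without sCT replicate 1) and 214 calls, the caspase and IAP list between 1 and 3, the kinases and partners between 10 and 17, and the mitochondrial list between 1 and 5. The difference of the pro-death and pro-survival medians ran from -0.11 to 0.072 with a sample left out.

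Directions turned under relative loading control centring for Bax (-0.063), Bak (-0.23), Bid (-0.053), Bim (-0.17), Puma (-0.066), Bcl2 (-0.12) and BCL2A1 (-4.03e-05), and under cytoskeletal control centring for Bak (-0.10) and Bim (-0.038). With a sample left out Bak ran from -0.013 to 0.069, below 0 without untreated replicate 1 or sCT replicate 2, and Bim from -0.023 to 0.20, below 0 without sCT replicate 2. The causes were not tested.

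Same-numbered samples deviated together (r = 0.586 over antibodies), but with 2 pairs and no label that ties the numbers they were not taken as paired. With the replicate block, 6 family antibodies were called, 4 higher and 2 lower, and 238 of the panel. The kinases and partners had 16 calls, 4 higher and 12 lower. On the other lists, 14-3-3 beta (adjusted p = 0.0575) and epsilon (0.0509), phosphorylated ERK (0.0593), phosphorylated FOXO3 (0.0637), HSP60 (0.0513) and beta-actin (0.0608) lost their calls, and phosphorylated AKT2 (0.0426) and cleaved caspase-3 (0.0408) gained one.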
